A study of Mus musculus with 6 samples.

Results

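The MBNL and CELF genes encode RNA-binding proteins that choose which exons a transcript keeps, and 8 of them were followed here: Mbnl1, Mbnl2, Mbnl3, Celf1, Celf2, Celf4, Celf5 and Celf6. They were taken by symbol from 57180 gene identifiers, and all 8 were found and passed the filter on low counts that left 17639 genes. The libraries are RNA-seq of mouse corneal endothelial cells, 3 from Col8a2Q455K/Q455K mice (called Col8a2) and 3 from Col8a2Q455K/Q455K/Tcf4+/- mice (called Tcf4+/-). All 6 libraries therefore carry the homozygous Q455K allele of Col8a2, a collagen of Descemet membrane, used to model Fuchs dystrophy of the cornea in mice, and there is no wild-type group. The second group is labelled as also lacking 1 copy of Tcf4, an E protein transcription factor. The age of the animals, the way the Tcf4 allele was made and whether corneas were pooled are not stated in the labels. Any p-value thus measures only how these libraries spread, part of which may be technical.

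MBNL proteins bind RNA through zinc fingers and, in most adult tissues, drive the adult pattern of exon use. CELF proteins bind GU-rich RNA through RNA recognition motifs, often push the same exons the other way, and in the cytoplasm speed the decay of their targets or hold back translation. In people, the common form of Fuchs dystrophy is tied to an expanded CTG repeat in an intron of TCF4, whose CUG-rich RNA gathers MBNL1 into nuclear foci and disturbs splicing. The mice here model the disease through a collagen mutation, and the labels name no repeat expansion.

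Since Tcf4 protein binds DNA at E-boxes, letters of the form CANNTG, the DNA upstream of the 3 members of highest level is printed for reference. Each sequence holds the 250 bases before a start site in RefSeq, build GRCm38.p6, in lower case and 5′ to 3′ on the gene's strand, with any E-box in capitals. Mbnl1 has 2 such windows, at chr3:60472580-60472829 (+) and chr3:60500929-60501178 (+). Mbnl2 has 1 at chr14:120275419-120275668 (+) and Celf1 has 1 at chr2:90940147-90940396 (+).
Mbnl1, upstream start: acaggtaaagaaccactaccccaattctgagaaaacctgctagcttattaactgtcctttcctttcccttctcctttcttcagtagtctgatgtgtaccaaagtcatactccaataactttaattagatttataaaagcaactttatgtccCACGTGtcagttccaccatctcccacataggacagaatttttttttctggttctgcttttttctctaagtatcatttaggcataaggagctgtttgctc
Mbnl1, downstream start: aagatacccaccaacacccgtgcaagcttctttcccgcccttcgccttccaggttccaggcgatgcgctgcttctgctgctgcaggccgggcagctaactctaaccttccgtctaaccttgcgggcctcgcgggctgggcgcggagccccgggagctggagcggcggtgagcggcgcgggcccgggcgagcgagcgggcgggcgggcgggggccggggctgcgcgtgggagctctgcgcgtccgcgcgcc
Mbnl2: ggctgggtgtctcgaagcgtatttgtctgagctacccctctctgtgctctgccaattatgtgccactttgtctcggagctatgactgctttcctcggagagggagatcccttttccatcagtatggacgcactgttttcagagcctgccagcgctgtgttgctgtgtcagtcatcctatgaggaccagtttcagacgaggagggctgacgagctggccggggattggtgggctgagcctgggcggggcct
Celf1: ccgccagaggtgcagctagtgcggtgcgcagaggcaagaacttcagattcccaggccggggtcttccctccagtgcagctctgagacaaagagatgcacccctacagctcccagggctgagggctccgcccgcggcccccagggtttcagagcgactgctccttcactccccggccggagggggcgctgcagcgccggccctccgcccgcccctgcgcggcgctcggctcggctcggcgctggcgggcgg
The upstream Mbnl1 window holds 1 E-box, CACGTG, that begins 99 bases before the start site (position -99), and the other 3 windows hold 0. The upstream Mbnl1 window has 1 CG dinucleotide and the downstream one has 33, against 10 for Mbnl2 and 24 for Celf1. Over the 7 members with a window used here, 8 of 17 windows (47.1%) hold CANNTG, which reads the same on both strands, against 66.2% of 32851 windows of the same length from all genes, and a pair of the Celf2 windows overlap. The narrower E-box CAGGTG, or CACCTG on the other strand, stands in 1 of the 17 (5.88%), in Celf5, and in 17.2% of all windows. These letter matches describe the windows and say nothing of binding. The deposited coordinates are of build GRCm39, so these positions are not joined to any read.

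Depth and labels bear on every value below. Total estimated counts ran from 30344161 to 54265479 per library, lowest in Tcf4+/- replicate 3. Tcf4 stood at 313, 470 and 430 CPM (counts divided by the TMM-adjusted depth) in the Col8a2 libraries and at 440, 599 and 374 CPM in those labelled Tcf4+/-, so the targeted gene was not lower as a whole-gene count and the groups are named by label only. All 14 corneal endothelium markers were detected in every library, with summed levels from 15990 to 24160 CPM in Col8a2 and from 12830 to 24300 CPM in Tcf4+/-, lowest in Tcf4+/- replicate 3. The mean log2 CPM of these markers, which weighs each gene alike, was 8.27 in that library and 8.95 to 9.57 in the others. Markers of neighbouring tissues were present too. Summed corneal epithelium markers ran from 5806 to 12400 CPM in Col8a2 and from 4987 to 11050 CPM in Tcf4+/-. Keratocyte and fibroblast markers summed to between 5196 and 11050 CPM in Col8a2 and between 8122 and 17180 CPM in Tcf4+/-. Summed lens markers ran from 33.9 to 628 CPM in Col8a2 and from 91.6 to 11180 CPM in Tcf4+/-, and summed photoreceptor markers from 2288 to 3220 and from 2278 to 9734 CPM, with Tcf4+/- replicate 3 highest in both lists. Also above every Col8a2 library were Tcf4+/- replicate 2 for lens markers (4199 CPM) and Tcf4+/- replicate 1 for photoreceptor markers (4793 CPM). Xist and Ddx3y gave a male pattern in Col8a2 replicate 1 and Tcf4+/- replicate 3 and a female pattern elsewhere. In bulk RNA, fewer cells of a type and less RNA per cell cannot be told apart.

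Of the 8 members, Mbnl2, Mbnl1 and Celf1 had the highest mean levels in these libraries. The part of each cell type in these levels was not tested. Per unit of transcript length, on the deposited TPM scale, the means over the 6 libraries were 48.3 TPM for Mbnl2, 34.8 for Mbnl1, 15.7 for Celf1, 9.99 for Celf2, 9.02 for Celf4, 2.62 for Mbnl3, 0.272 for Celf6 and 0.182 for Celf5. Mbnl2 stood above 86.6% of all genes tested and Celf1 above 68.5%, while Celf6 and Celf5 stood above only 4.10% and 2.24%. Mbnl2 was above Mbnl1 in 5 of 6 libraries, Mbnl1 above Celf1 in 6 of 6, and Celf1 above Celf2 in 5 of 6. Celf2 and Celf4 could not be ranked, with Celf2 the higher in 3 of 6, and neither could Celf6 and Celf5, again 3 of 6. No neighbouring pair in this order had ranges that were fully apart.

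**Figure D1:**
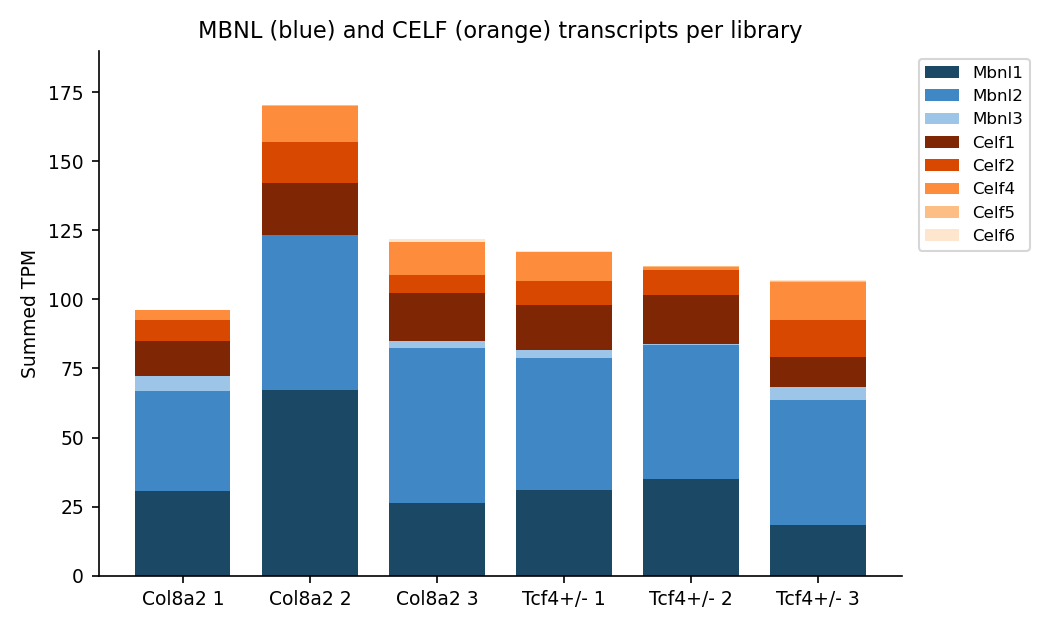
Stacked bars give the deposited TPM of the 8 genes in each library, with MBNL genes in blue and CELF genes in orange. MBNL genes fill 64.0% to 74.9% of each bar, and the tallest bar is Col8a2 replicate 2.

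MBNL transcripts outnumbered CELF transcripts in every library. Summed over Mbnl1, Mbnl2 and Mbnl3, they made up 74.9%, 72.4% and 69.6% of the 8 genes' TPM in Col8a2 and 69.5%, 74.8% and 64.0% in Tcf4+/-. The shares of the groups overlapped, at 72.3% ± 2.69 and 69.4% ± 5.42 (SD, n = 3 each). The lowest share belonged to Tcf4+/- replicate 3, and the difference between the group means, -2.87 percentage points, was -0.15 without that library and -5.57 without Tcf4+/- replicate 2. TPM in Tcf4+/- replicates 2 and 3 is also lowered as a whole, because 15.6% and 15.8% of it there went to mitochondrial tRNA, against 0% elsewhere, which leaves shares within a library untouched.

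The question the design puts to these genes is whether their level differs between the Tcf4+/- and Col8a2 groups, and no member passed that test. With edgeR's quasi-likelihood test, 0 of 8 members were called at a Benjamini-Hochberg adjusted p of 0.05, where 0.0% of all 17639 genes tested were called (adjusted p = 0.99988 for each member). At an unadjusted p under 0.05 it was also 0 of 8, beside 2.42% of all genes. DESeq2 called 0 members and 0.513% of all genes with an adjusted p, and it gave no p for Celf6. The 3 libraries of a group did not stand apart from the other 3 for any of the 8 members, against 8.1% of all genes tested (4.54% with Tcf4+/- higher and 3.57% with it lower). Of the fitted log2 fold changes, 5 were above 0 and 3 below, with a median of 0.23 beside 0.001 for all genes tested.

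**Figure D2:**
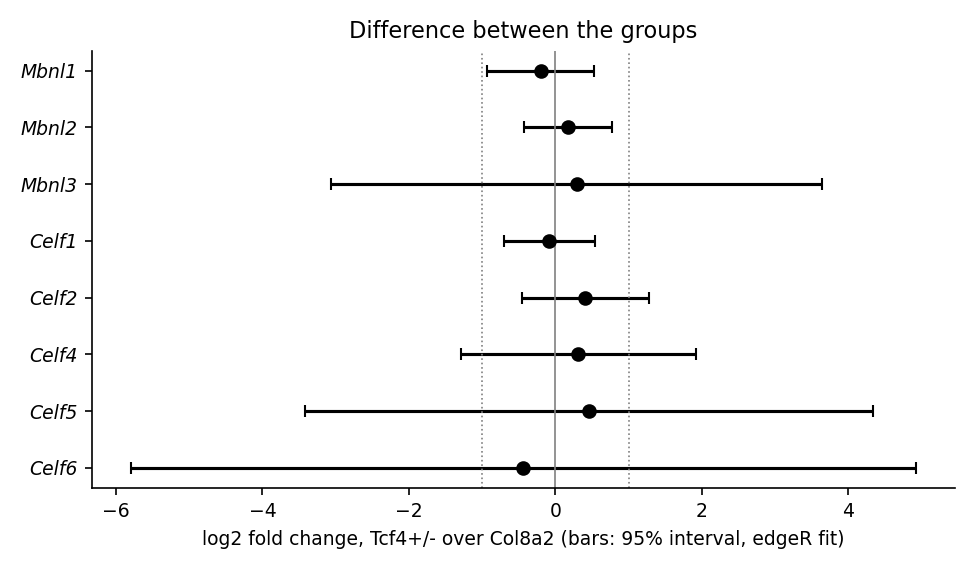
Points give the fitted log2 fold change of each gene in Tcf4+/- over Col8a2 and bars its 95% interval, with dotted lines at a 2-fold change either way. The intervals of Mbnl1, Mbnl2 and Celf1 lie inside the dotted lines, and those of Mbnl3, Celf5 and Celf6 reach far past both.

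In the main edgeR fit, the only one with intervals given, those of the 3 abundant members stayed within a 2-fold difference either way. The intervals of the others did not. The 95% intervals of Mbnl1, Mbnl2 and Celf1 all lay inside a log2 fold change of -1 to 1, that is, nearer to 0 than a 2-fold difference in either direction. Celf2 and Celf4 reached past 1 on the higher side, and Celf4 past -1 as well. The intervals of Mbnl3, Celf5 and Celf6 were so wide that a difference of several fold either way was not detectable here.

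Mbnl1, the best studied member and the protein that CUG repeats hold in foci, was at 146, 200 and 99.4 CPM in the Col8a2 libraries and at 133, 153 and 104 CPM in the Tcf4+/- libraries. Both ends of the range lay in the Col8a2 group, with replicate 2 highest and replicate 3 lowest, so the groups overlapped. Its log2 fold change was -0.20 with a standard error of 0.33 and an interval from -0.93 to 0.53. Without Col8a2 replicate 2 the value became 0.08. On log2(TPM + 1) it was -0.47, where the median of all genes lay at -0.15, and -0.31 with mitochondrial tRNA left out.

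Mbnl2, which takes over much of this work in the brain and can stand in for Mbnl1 elsewhere, had the smallest standard deviation of log2 CPM of the 8, 0.22, while Celf1 had a slightly narrower range (highest over lowest CPM 1.55, against 1.57). It was at 91.9, 116 and 130 CPM in the Col8a2 libraries and at 116, 120 and 144 CPM in the Tcf4+/- libraries. Only Col8a2 replicate 1 fell below 100 CPM, and the other Col8a2 libraries lay among or beside the Tcf4+/- ones. The log2 fold change was 0.17 (standard error 0.27, interval -0.43 to 0.77), and it turned to -0.04 on log2(TPM + 1) and on log2(TPM + 0.1), where the median of all genes lay at -0.15 and -0.18. On log2(TPM + 1) with mitochondrial tRNA left out it was 0.12. That standard deviation was smaller than those of all but 4.09% of the genes tested.

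Mbnl3, a mainly embryonic and regenerative member on chromosome X, varied most. Its estimated counts were 405, 1 and 182 in Col8a2 and 206, 24 and 302 in Tcf4+/-, or 8.60, 0.020, 3.60, 4.36, 0.44 and 10.2 CPM in the same order. Low and high libraries occurred in both groups, and replicate 2 was the low one in each. The 2 libraries with a male pattern were the 2 highest, and the part of sex in this was not tested. The standard deviation of its log2 CPM, 2.87, was above that of 97.6% of the genes tested. The fitted log2 fold change of 0.29 had a standard error of 1.496 and an interval from -3.06 to 3.64, and its sign turned without Col8a2 replicate 2 (-0.29) or Tcf4+/- replicate 3 (-0.77). With limma voom it was 1.15.

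**Figure D3:**
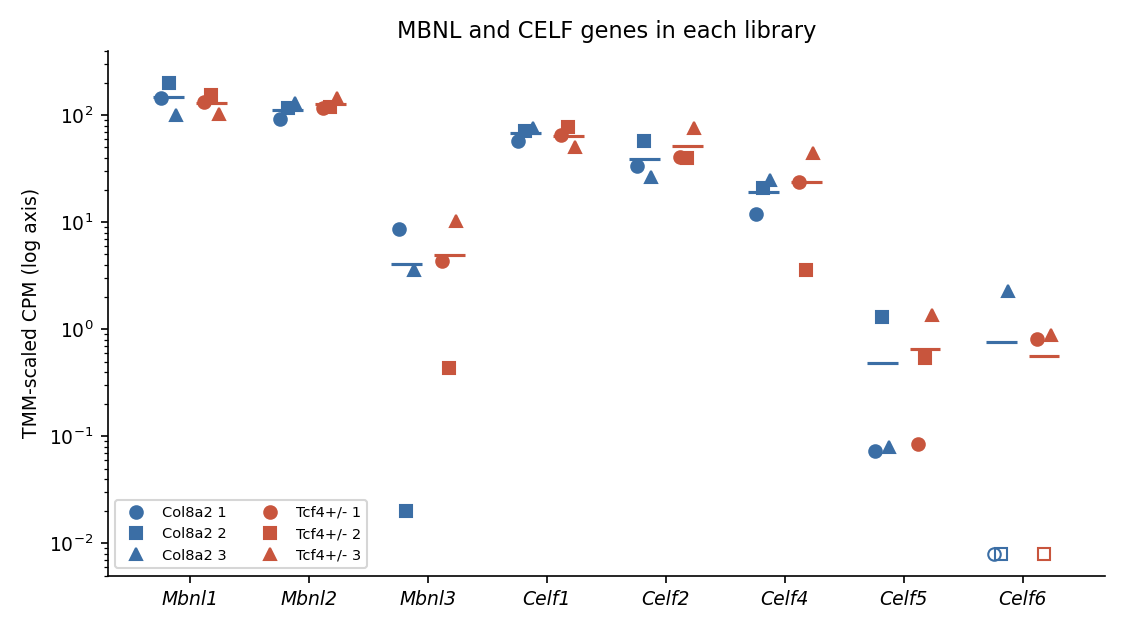
Each point is the TMM-scaled CPM of a gene in 1 library on a log axis, with Col8a2 in blue, Tcf4+/- in red and lines at group means. Open symbols at the bottom mark the libraries in which Celf6 had 0 counts, and the 2 groups overlap for all 8 genes.

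Celf1, the widely expressed member that opposes MBNL1 on many exons and recruits the deadenylase PARN to GU-rich messages, was at 56.9, 71.7 and 76.3 CPM in the Col8a2 libraries and at 65.7, 77.7 and 50.2 CPM in the Tcf4+/- libraries. The group means, 68.3 ± 10.1 and 64.5 ± 13.8 CPM (SD, n = 3 each), differed by less than either spread. The log2 fold change was -0.08 with a standard error of 0.28 and an interval from -0.71 to 0.54. Its sign turned without Col8a2 replicate 3 (0.005), without Tcf4+/- replicate 3 (0.064) and on the TPM scale after mitochondrial tRNA genes were left out (0.015).

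Celf2, abundant in brain, muscle and blood cells, was at 33.8, 57.0 and 26.7 CPM in the Col8a2 libraries and at 40.9, 40.1 and 75.1 CPM in the Tcf4+/- libraries. Tcf4+/- replicate 3 and Col8a2 replicate 2 stood above the other 4, which lay between 26.7 and 40.9 CPM. The log2 fold change was 0.41 (standard error 0.39, interval -0.46 to 1.27). It was fitted above 0 under all 19 other settings, from 0.04 without Tcf4+/- replicate 3 to 0.79 without Col8a2 replicate 2, and passed no test in any. Without Col8a2 replicate 2, the 3 Tcf4+/- values lay above the 2 remaining Col8a2 ones, as they did for 9.81% of all genes tested without that library. The summed level of 16 leukocyte markers was also highest in those libraries, at 858 CPM in Col8a2 replicate 2 and 575 CPM in Tcf4+/- replicate 3, against 236 to 381 CPM in the other 4. The mean log2 CPM of the same markers gave another order, highest in Tcf4+/- replicate 2 (2.08) and nearly equal in Col8a2 replicates 2 and 1 (1.68 and 1.65). Lyz2, a macrophage lysozyme, gave 657 and 419 CPM of these sums, and 12 to 16 of the 16 markers were above 0, with the T cell gene Cd3g at 0 in 5 of the 6 libraries. The part of such cells in the Celf2 level was not tested.

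Celf4, a member known mainly from neurons, was more abundant than Celf5 or Celf6 by far and differed widely within each group. It was at 11.9, 20.8 and 24.6 CPM in the Col8a2 libraries and at 23.8, 3.56 and 44.0 CPM in the Tcf4+/- libraries. The lowest and the highest of all 6 values thus belonged to Tcf4+/- replicates 2 and 3, a 12.3-fold range. The log2 fold change of 0.32 (standard error 0.71, interval -1.28 to 1.92) became -0.49 without Tcf4+/- replicate 3. It was also below 0 with limma voom (-0.50) and on the 3 TPM scales (-0.29 to -0.57).

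The gene whose pattern was most like that of Celf4 was Syt1, while some other neuron genes differed from it. Of 9831 genes compared, Syt1, the calcium sensor of synaptic vesicles, was nearest, with a root mean square difference of 0.24 in centred log2 CPM over the 6 libraries, against a median of 1.22. The next was Kif5a, a motor of axonal transport, at 0.40. Syt1 was at 19.0, 36.8 and 32.6 CPM in the Col8a2 libraries and at 39.6, 7.21 and 53.8 CPM in the Tcf4+/- libraries, so it was lowest and highest in the same libraries as Celf4. The ratio of Celf4 to Syt1 counts stayed between 0.494 and 0.817. The summed level of 12 neuron markers, Syt1 included, ran from 319 to 375 CPM in Col8a2 and was 511, 189 and 767 CPM in Tcf4+/- replicates 1, 2 and 3. Rbfox3 and Prph were at 0 in Col8a2 replicate 2 and Elavl4 and Prph in replicate 3, all 12 were above 0 in the other 4 libraries, and Snap25 was at 48.1 CPM or more in all 6 libraries. Snap25 was lower in Col8a2 replicate 2 (76.5 CPM) than in replicate 1 (134 CPM), and Nefm, a neurofilament gene, was at 36.7 CPM in Tcf4+/- replicate 2 against 13.3 CPM in Col8a2 replicate 1, both unlike Celf4. The part of nerve or retinal RNA in the Celf4 level was not tested.

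**Figure D4:**
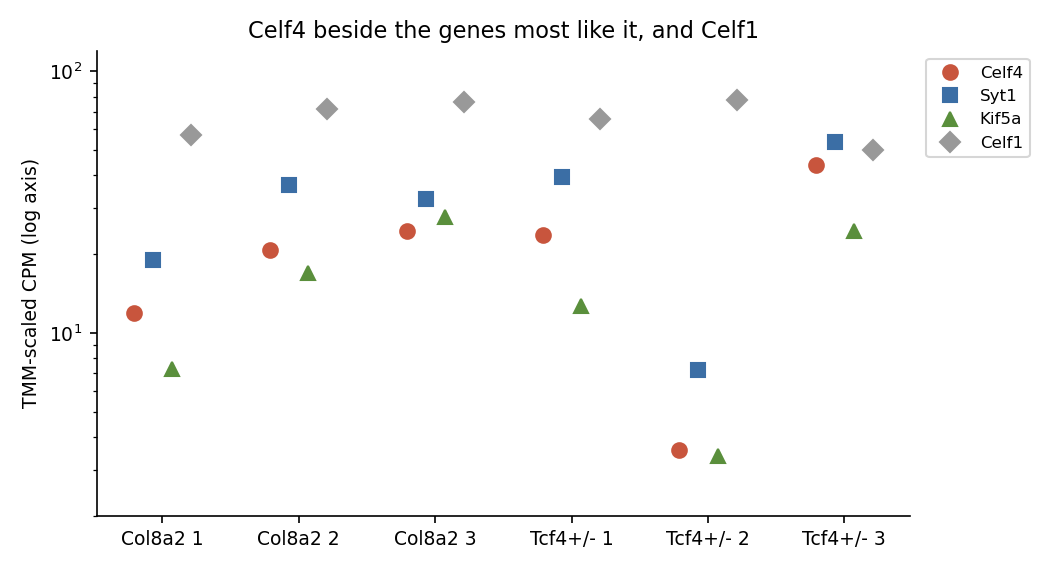
TMM-scaled CPM on a log axis in each library for Celf4, the 2 genes most like it (Syt1 and Kif5a) and Celf1. Celf4, Syt1 and Kif5a are all lowest in Tcf4+/- replicate 2, at 3.56, 7.21 and 3.38 CPM, where Celf1 stands at 77.7 CPM.

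Celf5 and Celf6, both members of nervous tissue, were near the limit of detection. Celf5 had 3.45, 64 and 4 estimated counts in Col8a2 and 4, 30 and 40 in Tcf4+/-, and no library passed 1.35 CPM. Celf6 had 0 counts in Col8a2 replicates 1 and 2 and in Tcf4+/- replicate 2, which allows up to 0.064, 0.061 and 0.055 CPM there (3 counts per library, counting error only). Its other libraries held 115 counts in Col8a2 replicate 3 and 38 and 26 in Tcf4+/- replicates 1 and 3. The Col8a2 level of Celf6 thus came from 1 library. Their log2 fold changes, 0.46 and -0.44, had standard errors of 1.73 and 2.39. Celf3, the paralog outside the 8, was low as well and also uneven, at 1.19, 0.42 and 4.64 CPM in Col8a2 and 0.36, 0.35 and 10.6 CPM in Tcf4+/-. Like Celf4, it was highest in Tcf4+/- replicate 3.

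The other abundant members each had closer neighbours among genes outside the 2 families than among themselves. For Mbnl1 the 2 genes most alike over the 6 libraries were Prnp, the prion protein gene, and Atp2a2, the calcium pump of the endoplasmic reticulum, with root mean square differences of 0.057 and 0.058 in centred log2 CPM. The Mbnl1 to Atp2a2 count ratio stayed between 1.67 and 1.87. Atp2a2 is itself among the genes listed below with exons that MBNL proteins control. Mbnl2 was closest to Ate1 (0.046) and Hsf1 (0.060), Celf1 to Lrrc3 (0.052) and Myo18a (0.053), and Celf2 to Inpp5e (0.12) and Cadm2 (0.14). Between members, the smallest such difference was 0.31, for Mbnl2 and Celf1, below the median over all genes for each (0.47 and 0.45). Mbnl1 and Mbnl2 differed by 0.48, near the medians of 0.53 and 0.47. Celf1 and Celf2 differed by 0.64, above the median for Celf1 (0.45) and just below that for Celf2 (0.67). The named neighbours are the nearest of many genes over only 6 libraries, while the members are few. Genes that vary little are close to many others.

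The deposited tables hold 1 trace of transcript choice, the mean transcript length of each gene weighted by the estimated abundance of its transcripts. Such an estimate says which annotated transcripts the reads were assigned to, not which exon was spliced. For Mbnl1, with 25 annotated transcripts of 346 to 5655 bases, the Col8a2 libraries gave 4996, 3985 and 4346 bases and those of Tcf4+/- gave 4722, 4766 and 4833. The 3 Tcf4+/- libraries were close together, at 4773 ± 55.9 bases, while Col8a2 spread on both sides of them, at 4442 ± 512 bases (SD, n = 3 each). In Col8a2 replicate 2, where the mean length was shortest, Mbnl1 reached 67.1 TPM and was above Mbnl2, the exception in the order above.

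Mean length was nearly constant for Mbnl2 and most variable for Celf4. For Mbnl2 it stayed between 2749 and 2811 bases in all 6 libraries. For Celf4 the Col8a2 libraries gave 3476, 2240 and 2444 bases and those of Tcf4+/- gave 2607, 3454 and 2790. The longest values, 3476 and 3454 bases, belonged to Col8a2 replicate 1 and Tcf4+/- replicate 2, the 2 libraries in which Celf4 was lowest. Its coefficient of variation over the libraries, 18.4%, was above that of 87.8% of 9981 genes with several transcripts and at least 100 counts in each library, where the median was 5.08%. Those genes were not matched for level. Celf4 had as few as 196 counts in a library, against at least 1350 for the other members read this way, so its length is the least precise. Celf1 had mean lengths of 4649, 5052 and 4931 bases in Col8a2 and 4456, 4759 and 4008 bases in Tcf4+/-, and Celf2 lay between 4732 and 5257 bases. The groups overlapped for these 5 genes, and Mbnl3, Celf5 and Celf6 had too few counts in some libraries to be read this way.

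**Figure D5:**
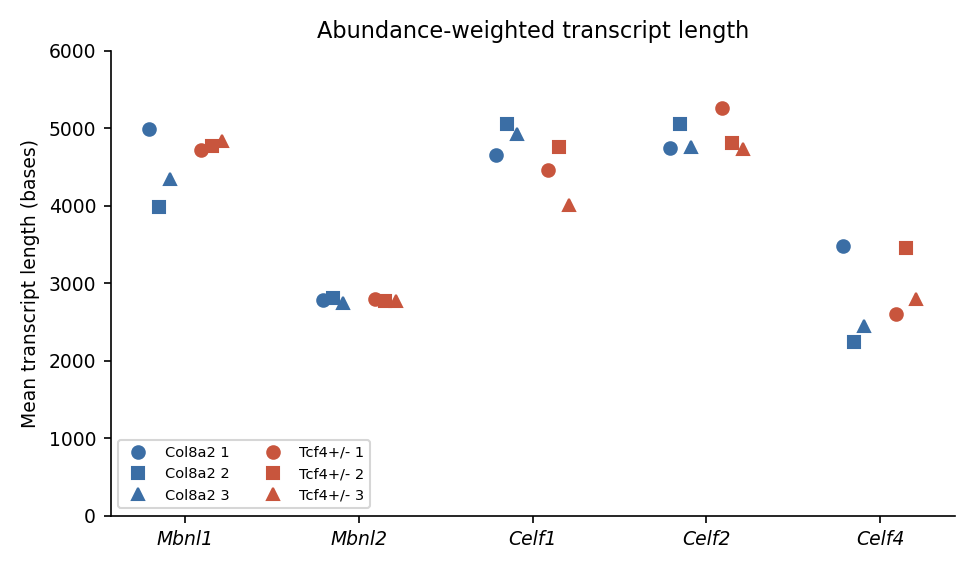
Points give the abundance-weighted mean transcript length in bases, in each library, of the 5 members with at least 100 counts in each. Mbnl2 stays between 2749 and 2811 bases, while Celf4 spreads from 2240 to 3476 bases with the groups mixed.

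Genes that host a repeat or bind CUG repeats, Tcf4 among them, showed no call. Of the 11 listed, all tested, edgeR called 0, and 0 had an unadjusted p under 0.05 (DESeq2 called 0). Their median log2 fold change lay within 0.001 of 0, with 5 fitted above 0 and 6 below. The RNA helicase gene Ddx5 averaged 577 ± 81.7 CPM in Col8a2 and 577 ± 74.0 CPM in Tcf4+/- (SD, n = 3 each). The zinc finger gene Cnbp, the other of the list's most abundant members, had a log2 fold change of -0.02. Ddx6, a helicase of RNA decay bodies, had the smallest p of the list, at 33.4, 48.4 and 33.2 CPM in Col8a2 and 36.1, 57.8 and 59.5 CPM in Tcf4+/- (log2 fold change 0.42, unadjusted p = 0.222). Hnrnph1, a splicing repressor, followed at 0.36.

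Other regulators of tissue-specific splicing gave no call with edgeR either, while DESeq2 called 1, Khdrbs2, beside 0.513% of all genes. Of 24 matched genes 23 were tested, 10 fitted above 0 and 13 below, with a median of -0.02, and 0 had an unadjusted p under 0.05. Ptbp1, the polypyrimidine tract binder that represses neuronal exons, was at 97.8, 104 and 88.5 CPM in Col8a2 and at 87.6, 74.4 and 38.9 CPM in Tcf4+/-. Its groups did not overlap, though only just, and its log2 fold change of -0.53 had an unadjusted p of 0.137. Elavl2, a neuronal RNA binder, had 0 counts in Col8a2 replicates 1 and 3 and lay at 0.42 CPM in replicate 2, against 0.945 to 2.18 CPM in Tcf4+/-. Elavl1, the ubiquitous member of that family, had a log2 fold change of -0.005. In this list the groups did not overlap for 4 of 23 genes tested, 2 higher and 2 lower, beside 8.1% of all genes.

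Among genes with exons that MBNL proteins are known to control, the differences of smallest p were in muscle genes. Of 29 genes 25 were tested, 11 fitted above 0 and 14 below, with a median log2 fold change of -0.06. edgeR called 0 and DESeq2 1 (Cacna1s), beside 0.0% and 0.513% of all genes. An edgeR unadjusted p under 0.05 was found for 2, Atp2a1 and Tnnt3, beside 2.42% of all genes tested. The groups did not overlap for 1 of the 25 tested, beside 8.1% of all genes. Atp2a1, the calcium pump of fast skeletal muscle, was at 3.12, 10.4 and 0.875 CPM in Col8a2 and at 34.6, 59.2 and 7.36 CPM in Tcf4+/- (unadjusted p = 0.0137). Tnnt3, fast skeletal troponin T, was at 4.67, 17.9 and 6.80 CPM and at 20.9, 52.4 and 14.7 CPM (unadjusted p = 0.0325), and it overlapped because Tcf4+/- replicate 3 lay below Col8a2 replicate 2. Summed skeletal muscle markers, 12 genes with Tnnt3 among them, ran from 19.3 to 184 CPM in Col8a2 and from 145 to 399 CPM in Tcf4+/-, with Myod1 at 0 in every library. The part of muscle RNA in both genes was not tested. App and Fn1, the list's most abundant genes, were fitted at -0.12 and -0.86 on the log2 scale, and Fn1 was lowest, at 218 CPM, in Tcf4+/- replicate 3 against 970 to 1957 CPM elsewhere.

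Messages that CELF1 binds, and the kinases and cyclin that act on it, were not called by edgeR or DESeq2. All 16 were tested, 5 fitted above 0 and 11 below, with a median log2 fold change of -0.16, and 0 had an unadjusted p under 0.05. Ptgs2, the inducible cyclooxygenase, was at 34.6, 32.9 and 12.5 CPM in Col8a2 and at 6.95, 23.3 and 2.46 CPM in Tcf4+/- (log2 fold change -1.29, unadjusted p = 0.113). Jun, an immediate early transcription factor, was at 74.5, 111 and 69.8 CPM and at 66.6, 66.6 and 49.7 CPM. It was the 1 gene of the 16 whose groups did not overlap, beside 8.1% of all genes tested. Ccnd3 and Cdk4, which together phosphorylate CELF1, had log2 fold changes of -0.27 and 0.07. These are gene levels, and neither exon use nor protein was measured here.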

How the data were processed

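RNA-seq libraries of corneal endothelial cells, 3 per group by sample title, were made with the RNeasy Micro, SMART-Seq HT and Nextera XT kits, per the labels' protocols, which name no strand-specific step. The submitters' processing notes name build GRCm39, STAR, RSEM, DESeq2, fastp 0.23.2 and FastQC 0.12.1, and neither the other versions nor the annotation are stated. The authors deposited RSEM gene tables. Their expected counts are not scaled to depth, and 9.97% of the deposited values are not whole. The deposited TPM values are scaled to length and to a common sum. The mean transcript lengths, in bases, are the authors' too, per the file headers. RSEM divides reads shared between paralogs.

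Identifiers were matched to symbols of GENCODE M21 (51884 of 57180), used with build GRCm38 for names, transcript lengths and windows only. Counts were rounded, filtered with filterByExpr, scaled by TMM (factors 0.973 to 1.06) and tested with the quasi-likelihood test of edgeR 4.0.16 in R 4.3.3, robust, genotype group the only term, Benjamini-Hochberg adjusted over 17639 genes. Log2 CPM used a prior count of 2. With 3 against 3 an exact permutation test cannot go below p = 0.1, so none is given. The edgeR fit was also run on simulated counts with known changes. Alternatives were DESeq2 1.42.0, limma 3.58.1 (voom, and log2 TPM with pseudocounts of 1 and 0.1, a scale that understates changes of low genes), other scaling and filters, a sex or replicate term and leaving out each library. Genes named were the members, Tcf4, Col8a2 and, in each function list, those past the threshold or else the 2 of smallest p and the 2 of highest TPM. For members of at least 10 CPM, the 2 genes with the nearest pattern were named too. Names outside that rule (Lyz2, Cd3g, Rbfox3, Prph, Elavl4, Nefm, Snap25, Myod1, Xist, Ddx3y and genes of the closing section) were picked once their values were known. The members and lists were chosen with earlier results of these data known. Col8a2 had a log2 fold change of -0.03.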

Additional observations from a re-analysis of the deposited data

How the results depend on the processing

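No member was called under any of the 19 other settings run (18 for Mbnl3, Celf5 and Celf6, which a minimum mean of 5 CPM leaves out, and DESeq2 gave no p for Celf6). The lowest adjusted p was 0.828, for Celf2, and only its sign held under all of them. Over all genes, 107 were called by DESeq2, 0 to 4 when 1 library was left out (4 without Col8a2 replicate 3) and 0 under the rest. The number of members whose groups did not overlap was 0 to 2 when 1 library was left out (Celf2 and Celf5 without Col8a2 replicate 2, Mbnl2 without Col8a2 replicate 3) and 0 under other scalings. Of all genes tested, 15.1% to 19.1% did not overlap with 1 library left out (17.5% and 19.1% in those fits). For Celf5 the groups were apart only through scaling to depth, with 3.45 and 4 counts in Col8a2 and 4 in Tcf4+/- replicate 1. Leaving out 1 library gave log2 fold changes from -0.419 to 0.080 for Mbnl1, -0.773 to 1.457 for Mbnl3, -0.225 to 0.064 for Celf1, -0.487 to 0.848 for Celf4, -0.604 to 3.165 for Celf5 and -1.025 to 7.681 for Celf6 (0.168 without Tcf4+/- replicate 2). The Celf6 value of 7.681 faces a group at 0 counts and depends on the prior count. Set against 3 counts over that group, the pooled 64 counts of Tcf4+/- were at least 15.6-fold higher, for counting error only. They came from Tcf4+/- replicates 1 and 3 (38 and 26), and replicate 2 was at 0 as well. The libraries of the groups thus overlapped, and the pooled value is no bound on a difference between the groups. On log2(TPM + 1), Mbnl2, Celf4 and Celf5 stood at -0.039, -0.410 and -0.057, on log2(TPM + 0.1) Mbnl2, Celf4 and Celf6 at -0.039, -0.572 and 0.244, and without mitochondrial tRNA Celf1, Celf4 and Celf5 at 0.015, -0.287 and -0.027. With limma voom Mbnl3, Celf4 and Celf6 stood at 1.153, -0.502 and 1.266, and with sex pattern as a term Celf6 at 0.053. The cause of these changes was not tested.

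With the replicate number as a block, 0 members and 0 genes were called, and Mbnl3, Celf4 and Celf6 stood at 1.352, -0.110 and 1.716. Same-numbered libraries had correlations of their deviations from the group mean of -0.073, 0.37 and -0.031. Differently numbered ones had correlations from -0.25 to 0.26. The labels state no pairing, and correlations over so few libraries cannot decide whether there is any. Low counts limit what can be said of Celf5 and Celf6, and these did not follow depth: Celf6 had 0 counts in the deepest library, Tcf4+/- replicate 2, and 26 in the shallowest, Tcf4+/- replicate 3.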

Other observations

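Of the genes read beside the members, DESeq2 called 2 that the filter kept out of the edgeR test, both at 0 counts in all Col8a2 libraries. Over all genes with a DESeq2 adjusted p, 0.513% were called. Khdrbs2, a neuronal splicing regulator, had 86, 10 and 65 counts in Tcf4+/- replicates 1, 2 and 3 (DESeq2 adjusted p = 0.0111). Cacna1s, the calcium channel of skeletal muscle, had 150, 121 and 1 counts there (DESeq2 adjusted p = 0.0175). Vldlr, a receptor gene with an MBNL-controlled exon, was at 9.07, 15.1 and 10.4 CPM in Col8a2 and at 24.1, 16.7 and 18.9 CPM in Tcf4+/-, with a log2 fold change of 0.79 (edgeR unadjusted p = 0.0845). Rbm20, a splicing regulator of heart and muscle, was at 18.3, 22.2 and 28.4 CPM and at 13.9, 18.1 and 17.6 CPM, and Tial1, an RNA binder of stress granules, at 33.2, 33.7 and 35.2 CPM and at 35.6, 47.6 and 38.4 CPM, with log2 fold changes of -0.47 and 0.25. The groups of Vldlr, Rbm20 and Tial1 did not overlap, which also held for 8.1% of all genes tested. Khdrbs2 and Cacna1s were not among the genes tested, and Cacna1s stood apart only by 1 count in Tcf4+/- replicate 3. All the genes of this section were picked with their values known.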
